A study of Enchytraeus albidus with 42 samples.

Results

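Transcript levels in the acetone solvent control were compared with those in the water control in whole adults of Enchytraeus albidus, a small oligochaete worm of soil and litter. No pesticide was added to either soil. The 6 arrays titled as solvent control or control, 3 of each, were compared. In the main fit each SE, interval and p of a transcript rests on the spread within groups over all 42 arrays of the series. Both groups held unexposed worms with a developed clitellum, the gland that secretes the cocoon, and both were kept for 2 days at 20 °C in a natural standard soil, with 15 worms per vessel of 25 g per the labels. Solvent control soil had received the amount of acetone used to carry atrazine and carbendazim, and the acetone was left to evaporate overnight before the worms were added. Water control soil had received water, as had the soils spiked with dimethoate. Each array carried RNA of 1 biological replicate, extracted from whole bodies, so that a difference in RNA per cell cannot be told apart from a difference in the number of cells of a type.

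Acetone is a volatile solvent that brings poorly soluble pesticides into soil, and a solvent control separates what it does from what the pesticide does. Enchytraeids feed on decaying matter and microorganisms and take up dissolved chemicals through the skin as well as with food. The array holds 1035 transcripts from cDNA libraries of this species. Names of 225 transcripts come from sequence similarity to proteins of other organisms, and the numbers beginning with EAC are the study's own. These names were taken from the study's list of transcripts affected by a pesticide and similar to known proteins. A transcript outside that list is given here as without a name, which does not mean that it resembles no known protein. The transcripts were not placed on a genome here.

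Levels are background-subtracted signals in log2 units, shifted so that the arrays share a median level, and every change is solvent control minus water control in these units. Transcripts are called differentially expressed at a limma p under 0.05 after adjustment for all 1035 transcripts by the method of Benjamini and Hochberg. The share of transcripts well above background was 81.6% to 85.0% on solvent control arrays and 85.4% to 87.7% on water control arrays. The solvent control arrays lay on 3 slides and the water control arrays on 2 others, and the groups were scanned on different days. Slide and day of scanning therefore cannot be told apart from the solvent within these 6 arrays, and they are linked only through dimethoate arrays that shared slides or days with both. The number of arrays limits the precision.

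Most transcripts differed little between worms from acetone-treated and from watered soil, and a small group of mostly unnamed transcripts stood far above the rest. Differential expression was called for 19 of 1035 transcripts (1.84%), of which 17 were up-regulated in the solvent control (1.64%) and 2 were down-regulated (0.193%). All 19 had solvent control arrays that lay entirely to 1 side of the water control arrays, against 279 of all transcripts (27%), of which 143 lay above and 136 below. The median change over all transcripts was 0.01, and 73.7% changed by less than 0.5 in either direction. A change above 2 was found for 17 transcripts and a change below -2 for 2. At an unadjusted p under 0.05 limma gave 116 transcripts (11.2%), 49 higher (4.73%) and 67 lower (6.47%). Of the 19 called transcripts 15 had no name, and 4 were named mads flc-like protein 2.

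**Figure D1:**
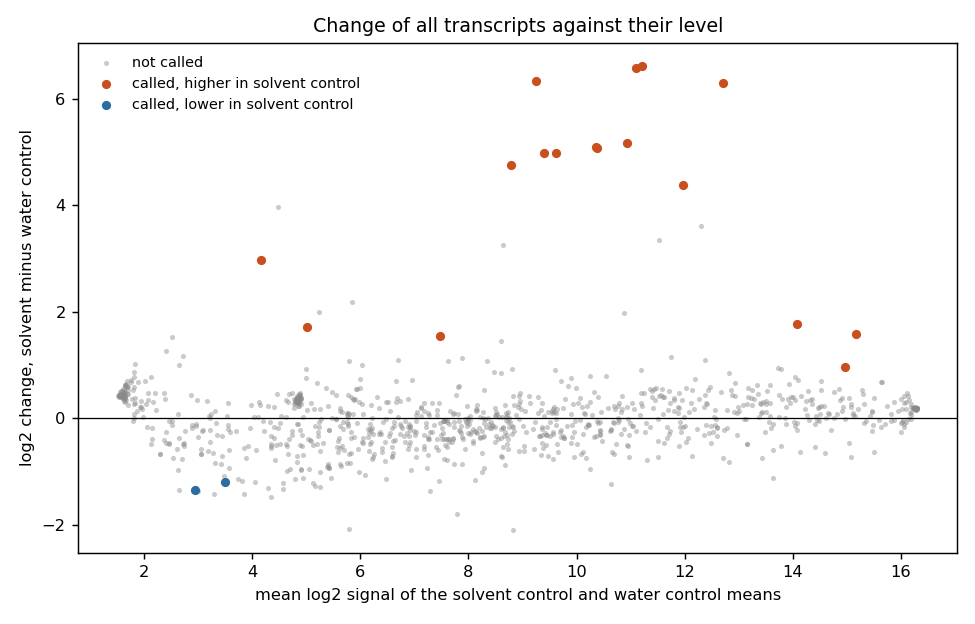
The log2 change of each transcript, solvent control minus water control (vertical axis), is plotted against its mean log2 signal in both groups (horizontal axis). The 17 transcripts called higher reach a change of 6.62, whereas the 2 called lower lie at the dim end near background.

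These calls rested on single arrays and on how slides were treated. Without water control replicate 3 only 1 transcript was called, without water control replicate 2 there were 11, and with the slide as a block limma called 0, with 41 at an unadjusted p under 0.05. With the day of scanning as a block 23 were called, and 57 without the 2 dimethoate arrays of a scan that deviated from their groups. Those 23 held 16 of the 19, and those 57 held all 19. All 19 kept their direction in each of these fits. With the slide as a block their changes were 0.883 to 1.69 times as large as without it, while the median SE over all transcripts was 0.70, against 0.33 without it, and without water control replicate 3 the changes were 0.792 to 1.15 times as large. When arrays were scaled to their 75th percentile, which moved the median of all transcripts to -0.285, 37 were called, 18 higher and 19 lower. With normexp background correction 15 were called, all higher, and 14 of them were among the 19.

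The largest change was that of Contig8, a transcript without a name. Its log2 level was 14.53, 14.60 and 14.41 in solvent control replicates 1, 2 and 3, and 11.40, 6.60 and 5.68 in water control replicates 1, 2 and 3. The groups did not overlap, and the solvent control arrays were close together while the water control arrays were spread over more than 5 units. The change was 6.62 ± 1.48 (SE, n = 3 arrays per group), or 98.3-fold, with a 95% interval of 3.60 to 9.64 and an adjusted p of 0.0087.

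Transcripts whose profile was like that of Contig8 were sought over the 36 arrays outside both control groups, by a Pearson correlation of at least 0.9. There were 6, namely Ealb_Met_P7_C1_SP6_2090602 (r = 0.995), Contig119 (0.969), Contig126 (0.911), P1_G2_T7_1328822 (0.910), Ealb_Met_P7_C5_SP6_2090632 (0.907) and Contig19 (0.903), and none of them has a name. All 6 were higher on each solvent control array than on any water control array, as were 143 of all 1035 transcripts (13.8%). Not all of the 6 were called. They were chosen for likeness to the transcript with the largest change, so they do not count as separate cases. Whether these sequences overlap, so that their probes would measure 1 transcript, was not tested.

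Ealb_Met_P7_C1_SP6_2090602 followed Contig8 closely, with 14.33, 14.39 and 14.45 in the solvent control and 11.42, 6.60 and 5.42 in the water control, a change of 6.57 (95% interval 3.60 to 9.55, adjusted p = 0.0087). Contig119 was brighter throughout, with 15.99, 15.84 and 15.78 in the solvent control, 1 of these arrays being saturated, and 13.29, 8.29 and 7.10 in the water control. It changed by 6.31 (95% interval 3.49 to 9.12, adjusted p = 0.0080). In both, water control replicate 1 was the high array of its group and replicate 3 the low one, as it was for Contig8.

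Contig19 had its high array in replicate 2 of both groups instead. It stood at 13.39, 15.25 and 13.88 in the solvent control and at 9.66, 11.26 and 8.43 in the water control, a change of 4.39 (95% interval 2.20 to 6.58, adjusted p = 0.018). P1_G2_T7_1328822 and Contig126 also had their high array in replicate 2 of the solvent control, with changes of 3.62 (adjusted p = 0.059) and 3.35 (adjusted p = 0.099) that did not pass the test. Ealb_Met_P7_C5_SP6_2090632 was the dim member, at 6.75, 6.22 and 6.45 in the solvent control and 4.77, 1.18 and 1.53 in the water control, where 1 of 3 arrays was well above background. Its change of 3.98 had an adjusted p of 0.092.

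Ealb_Met_P7_G8_T7_2175288, which fell just short of that correlation (r = 0.898), was also among the largest changes. Its level was 12.25, 12.03 and 12.98 in the solvent control and 10.14, 4.67 and 3.44 in the water control, where 2 of 3 arrays were well above background. The change was 6.34 (95% interval 3.41 to 9.27, adjusted p = 0.0097). Again the spread lay mainly in the water control, with an SD of 0.50 in the solvent control and 3.57 in the water control.

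**Figure D2:**
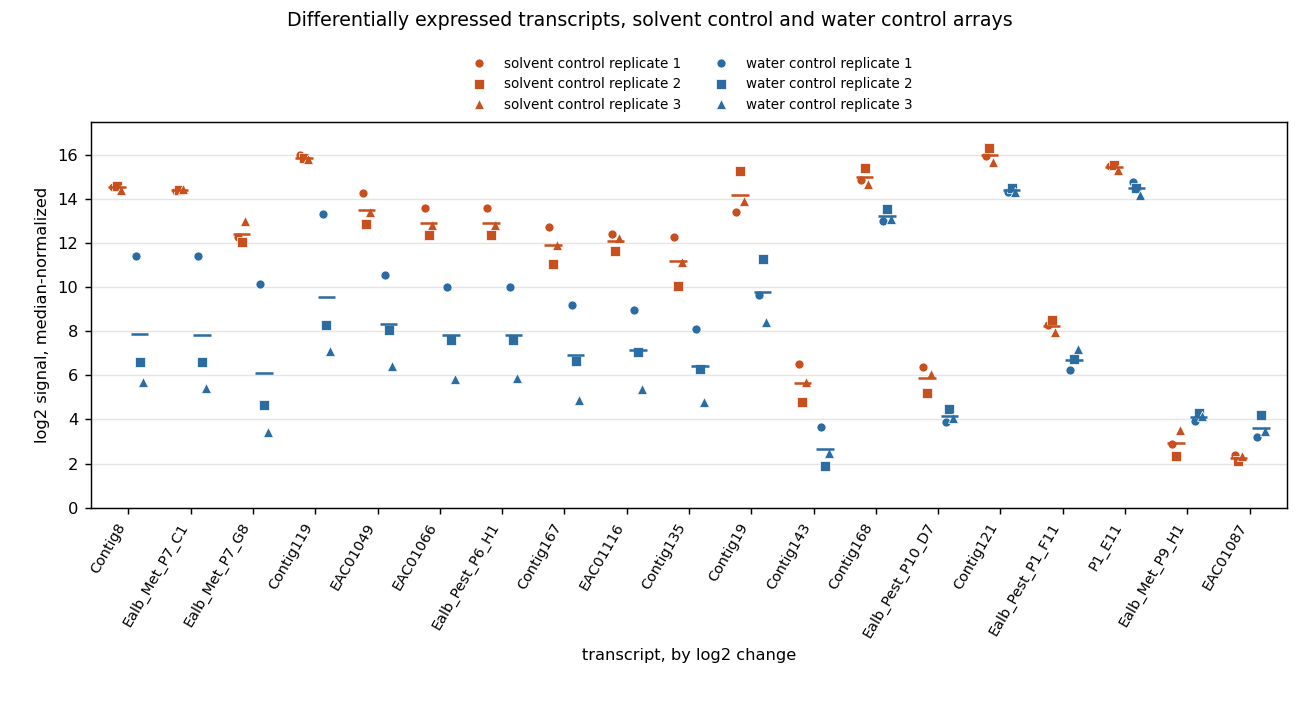
Log2 signal (vertical axis) of the 19 differentially expressed transcripts (horizontal axis, ordered by change) on each of the 3 solvent control arrays (orange) and 3 water control arrays (blue), with group means as lines. The groups do not overlap for any of the 19, and for the transcripts with the largest changes the water control arrays spread far more than the solvent control arrays, as for Contig8 with an SD of 0.09 in the solvent control and 3.07 in the water control.

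The named transcripts that were up-regulated all bear the name mads flc-like protein 2. MADS proteins are transcription factors that share a DNA-binding domain, and FLC is known in the plant Arabidopsis as a repressor of flowering. The name was given by sequence similarity alone, and what these transcripts encode in the worm is not known from the files.

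EAC01049 (Ealb_Pest_P6_F12_SP6_2092122) had the largest change among them, with 14.28, 12.84 and 13.40 in the solvent control and 10.54, 8.07 and 6.41 in the water control. It was 35.9-fold higher in the solvent control, a change of 5.17 ± 1.04 (SE, n = 3 arrays per group, 95% interval 3.05 to 7.28, adjusted p = 0.0054). EAC01066 (Ealb_Pest_P7_C2_SP6_2092135) changed by 5.10, with 13.60, 12.34 and 12.80 in the solvent control against 10.01, 7.59 and 5.85 in the water control. EAC01116 (Ealb_Pest_P9_F6_SP6_2091032) changed by 4.97, with 12.42, 11.65 and 12.23 in the solvent control against 8.94, 7.06 and 5.38 in the water control. Both had an adjusted p of 0.0054. In all 3 transcripts replicate 1 was the highest array and replicate 2 the lowest of the solvent control, while replicate 3 was the lowest of the water control.

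The remaining 11 transcripts of that name were not up-regulated. EAC01059, at 15.09, 14.26 and 14.95 in the solvent control and 14.82, 14.80 and 14.68 in the water control, changed by 0.00, and EAC01092 changed by -0.04 at a similar level. EAC00971 stood at 9.72, 9.90 and 10.45 in the solvent control and 10.93, 11.47 and 11.34 in the water control, a change of -1.22 that did not pass the test (adjusted p = 0.19). EAC01039 changed by -0.94 (adjusted p = 0.44). In EAC00971 and EAC01039 the solvent control arrays lay wholly below the water control arrays, as for 136 of all 1035 transcripts (13.1%). EAC01087 (Ealb_Pest_P8_C5_SP6_2090928) was called lower, with 2.38, 2.10 and 2.33 in the solvent control and 3.18, 4.18 and 3.48 in the water control (adjusted p = 0.041). It was not well above background on any solvent control array and on 1 of 3 water control arrays, so that no fold is given. Of the 14 transcripts of the name 3 were called higher and 1 lower. Over all 1035 transcripts, 17 (1.64%) were called higher and 2 (0.193%) lower. The median change over the 14 was -0.02, against 0.01 over all transcripts.

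**Figure D3:**
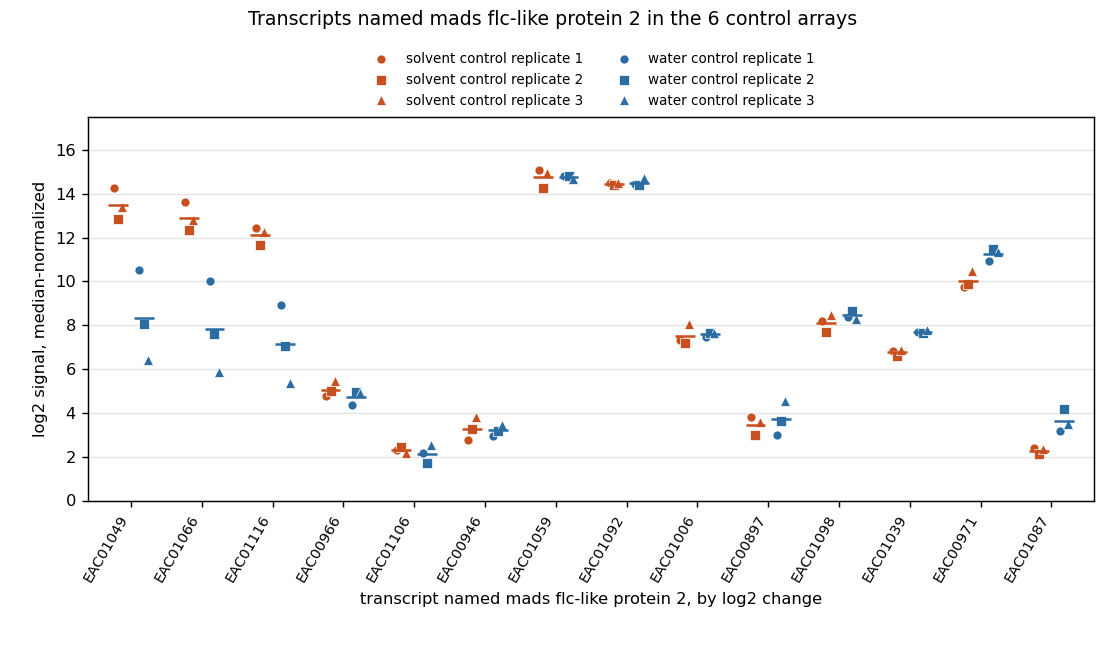
Log2 signal (vertical axis) of the 14 transcripts named mads flc-like protein 2 (horizontal axis, ordered by change) on the solvent control arrays (orange) and water control arrays (blue), with group means as lines. EAC01049, EAC01066 and EAC01116 differ by 4.97 to 5.17 between groups, whereas EAC01059 and EAC01092 sit at about the same level on all 6 arrays.

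After these values had been seen, the same correlation of at least 0.9 over the 36 other arrays was computed for EAC01049. EAC01066 (r = 0.999), EAC01116 (0.995) and 5 transcripts without a name passed it, namely Ealb_Pest_P6_H1_SP6_2092020 (0.999), Contig167 (0.997), Contig135 (0.977), Contig143 (0.943) and Ealb_Pest_P10_D7_SP6_2092316 (0.901). All 8 of these transcripts, EAC01049 included, were called higher, against 17 of all 1035 (1.64%). EAC01049 was picked for its large change, so the 8 do not count as separate cases. Correlations of this size can come from probes to 1 transcript, and whether the sequences overlap was not tested. Correlations between these 8 and the 7 transcripts around Contig8 lay between 0.616 and 0.825.

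Ealb_Pest_P6_H1_SP6_2092020 was measured at 13.60, 12.35 and 12.79 in the solvent control and at 10.01, 7.61 and 5.87 in the water control, almost the levels of EAC01066 on every array. Contig167 changed by 4.99 (adjusted p = 0.0064) and Contig135 by 4.76 (adjusted p = 0.0074), both with the same order of arrays in each group. Contig143 had 6.51, 4.78 and 5.68 in the solvent control and 3.65, 1.91 and 2.48 in the water control, where no array was well above background. It was at least 4.16-fold higher in the solvent control (adjusted p = 0.011), a bound that sets each water control array to no less than its lowest signal well above background. Ealb_Pest_P10_D7_SP6_2092316 changed by 1.72 (adjusted p = 0.021), with 6.39, 5.20 and 6.04 in the solvent control against 3.90, 4.49 and 4.07 in the water control.

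The other transcripts called higher changed less but were measured more evenly. Ealb_Pest_P1_F11_SP6_2090898 had the smallest adjusted p of all (0.0032). It stood at 8.26, 8.51 and 7.98 in the solvent control and 6.24, 6.72 and 7.17 in the water control, a change of 1.54 ± 0.27 (SE, n = 3 arrays per group, 95% interval 0.98 to 2.10), or 2.91-fold. It was the 1 transcript still called without water control replicate 3, with a change of 1.77 and an adjusted p of 0.0014. Its water control replicate 3 was the highest of the 3, unlike in the transcripts with the largest changes.

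Contig168 and Contig121 were bright in both groups. Contig168 had 14.85, 15.39 and 14.68 in the solvent control and 12.97, 13.53 and 13.09 in the water control, a change of 1.78 (95% interval 0.93 to 2.62, adjusted p = 0.011). Contig121 had 15.96, 16.31 and 15.65 in the solvent control and 14.32, 14.51 and 14.31 in the water control, a change of 1.59 (95% interval 0.80 to 2.39, adjusted p = 0.018). P1_E11_T7_1328882 changed by 0.96, the smallest called change, with 15.48, 15.53 and 15.29 in the solvent control and 14.75, 14.50 and 14.17 in the water control (adjusted p = 0.0074). In these transcripts the range within either group was smaller than the difference between the group means.

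Ealb_Met_P9_H1_SP6_2091174 was called lower. Its level was 2.87, 2.33 and 3.54 in the solvent control, where no array was well above background, and 3.91, 4.28 and 4.14 in the water control, where all 3 were. It was at least 1.05-fold lower in the solvent control (adjusted p = 0.024). With EAC01087 it makes up all the transcripts called lower in the main fit, so that no transcript well above background on all 6 arrays was called lower there. Other settings called more decreases. There were 19 lower and 18 higher with 75th percentile scaling, and 21 lower and 36 higher without the dimethoate arrays of the deviating scan.

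Larger decreases missed the threshold. Contig129 stood at 7.16, 8.26 and 7.91 in the solvent control and at 9.61, 9.87 and 10.12 in the water control, a change of -2.09 (95% interval -3.48 to -0.70, adjusted p = 0.11). Its sign turned when the slide or the day of scanning was a block, with changes of 0.17 and 0.51. Ealb_Met_P6_G2_SP6_2090523 changed by -2.08 (adjusted p = 0.068), with 5.34, 4.41 and 4.50 in the solvent control against 5.60, 8.04 and 6.84 in the water control. A beta actin, EAC00523, changed by -1.81 (adjusted p = 0.35) with overlapping groups. The other 7 of the 10 lowest changes lay between -1.34 and -1.47.

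The remaining 36 arrays show where each control group stood. For Contig8, 30 of them were below all solvent control arrays and 27 were above all water control arrays. The level of Contig8 was 9.17 to 15.25 with a median of 13.09 on the 24 atrazine and carbendazim arrays, and 7.34 to 14.86 with a median of 12.13 on the 12 dimethoate arrays. For Contig168 and Contig121, 28 and 29 of the 36 lay below all solvent control arrays, and 35 lay above all water control arrays in both. Ealb_Pest_P1_F11_SP6_2090898 was lower than in any solvent control array on 33 of the 36 arrays and above all water control arrays on 24. For each of these transcripts most of the pesticide arrays thus lay between the control groups.

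The mean level of the 7 transcripts around Contig8 was 13.04 to 13.63 on solvent control arrays and 6.57 to 10.35 on water control arrays. On the atrazine and carbendazim arrays it ran between 8.74 and 13.86 with a median of 12.07, and on the dimethoate arrays between 7.07 and 13.80 with a median of 11.44. The mean level of the 8 transcripts around EAC01049 was 10.03 to 11.47 in the solvent control and 4.97 to 8.04 in the water control. It was 7.12 to 12.52 with a median of 10.21 on atrazine and carbendazim arrays, and 5.99 to 11.86 with a median of 9.59 on dimethoate arrays. For either set 29 of the 36 arrays were above all water control arrays and none was below all of them.

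**Figure D4:**
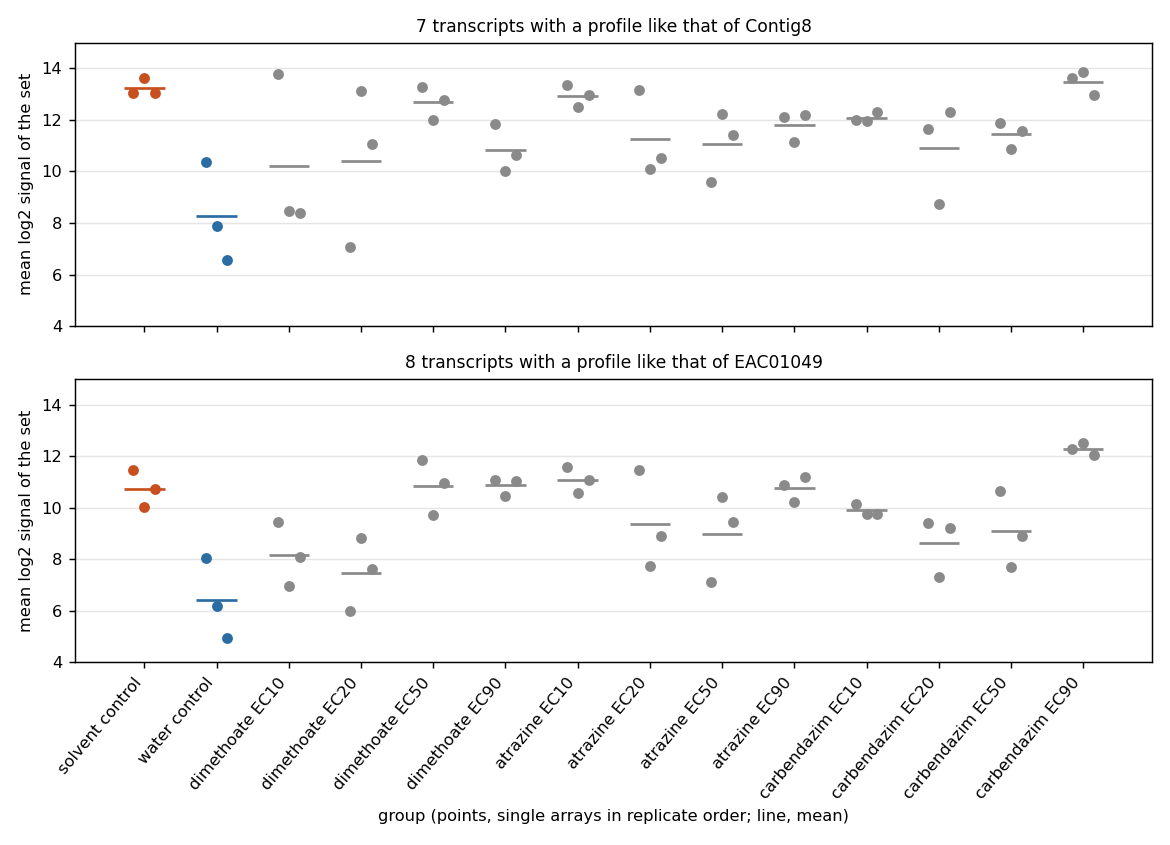
Mean log2 signal (vertical axis) of the 7 transcripts with a profile like that of Contig8 (upper panel) and of the 8 with a profile like that of EAC01049 (lower panel) on every array, by group (horizontal axis), with group means as lines. The solvent control (orange) lies at 13.04 to 13.63 and 10.03 to 11.47, the water control (blue) at 6.57 to 10.35 and 4.97 to 8.04, and pesticide groups are in grey. In the upper panel replicates of dimethoate EC10 and of dimethoate EC20 differ by over 5 units.

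Arrays that shared a slide with a control were set beside it. The 17 up-regulated transcripts were called on these same control arrays, as high in the solvent control and low in the water control. Water control replicate 3 was the lowest of its group in 13 of the 17. Their order against a control array is thus partly fixed by that choice, and the shares over all 1035 transcripts were not counted. On the slide of solvent control replicate 1, where Contig8 was at 14.53, dimethoate EC10 replicate 2 had 8.80 and the 5 carbendazim arrays had 11.81 to 14.79. All 17 up-regulated transcripts were higher on solvent control replicate 1 than on that dimethoate array, by a median of 5.11, and 1 of the 17 was higher there than on all 5 carbendazim arrays. On the slides of solvent control replicates 2 and 3, where Contig8 was at 14.60 and 14.41, the atrazine arrays had 10.65 to 14.99 and 9.63 to 13.45. Of the 17 transcripts 5 were higher on solvent control replicate 2, and 8 on replicate 3, than on all atrazine arrays of the slide. The 6 dimethoate EC50 and EC90 arrays had 9.70 to 14.52 and shared their slide with water control replicate 3, which had 5.68, and for all 17 transcripts these 6 arrays were above that water control array. On the slide of water control replicates 1 and 2, 4 dimethoate EC10 and EC20 arrays had 8.48 to 14.86, against 11.40 and 6.60 on these controls, and for 1 of the 17 transcripts all 4 were above both. For Contig8, differences larger than that between the control means were also present within slides, but only in pairs that held a water control array. Those low water control arrays are part of the change itself, so such pairs are not independent of it.

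Acetone had also been mixed into the soil of all atrazine and carbendazim groups and of no dimethoate group, which gave a comparison with no control array in it. The pesticides differ as well, so that solvent and pesticide cannot be told apart there. Most dimethoate arrays also shared the slides and the day of scanning of the water control. All atrazine and carbendazim arrays lay on other slides and were scanned on other days. Slide and day of scanning thus largely follow the solvent in both comparisons and cannot be told apart from it. Between the 8 atrazine and carbendazim groups and the 4 dimethoate groups 164 transcripts were called (15.8%). Of these, 77 were higher (7.44%) and 87 lower (8.41%) in the groups with acetone-treated soil. With the 75th percentile scaling there were 110, 14 higher and 96 lower, and with the slide as a block there were 0, with 17 at an unadjusted p under 0.05. Of the 19 transcripts called between the controls 16 had the same sign in that comparison, against 573 of all 1035 transcripts (55.4%). Several of the 19 have nearly the same profile, so that they do not count as separate cases. Limma called 0 of the 19 in it, with 1 at an unadjusted p under 0.05, against 347 of all transcripts (33.5%). Contig8 changed by 1.20 (adjusted p = 0.19), EAC01049 by 0.83 (adjusted p = 0.19), and Contig168 by 0.27 (adjusted p = 0.29). Over all 1035 transcripts Pearson's r between the changes of the comparisons was 0.39, a description over transcripts that are not independent of each other.

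Named transcripts were described in 19 lists that hold 164 of the 225 names. The study had chosen these names on the same arrays, so that the lists are not independent of them. Outside mads flc-like protein 2, none of the lists had a member called by limma, 15 of their 150 transcripts had an unadjusted p under 0.05, against 116 of all 1035 (11.2%), and list medians lay between -0.65 and 0.60.

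Actins, which form the thin filaments of muscle and the cell cortex, were 22 transcripts with a median change of 0.08, 13 higher and 9 lower. The highest, EAC00357, stood at 11.67, 11.68 and 11.54 in the solvent control and 10.94, 11.22 and 11.08 in the water control, a change of 0.55 (adjusted p = 0.30). Myosin, tropomyosin and troponin, the contractile and regulatory proteins of muscle, were 17 transcripts with a median of -0.13. Troponin t EAC00496 had 7.92, 6.84 and 6.86 in the solvent control against 8.04, 7.99 and 7.95 in the water control (change -0.79, adjusted p = 0.15), and the other troponin t, EAC00340, changed by -0.71 (adjusted p = 0.32). In both troponin t transcripts the solvent control arrays lay wholly below the water control arrays, as for 136 of all 1035 transcripts (13.1%). For EAC00496 replicate 1 of the solvent control was close to the water control. Actin-binding proteins had a median of 0.08 over 9 transcripts, and the sarcoplasmic calcium-binding proteins, which buffer calcium in muscle, a median of -0.20 over 5.

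Intermediate filament proteins, which strengthen epithelial cells, had the lowest median of the lists (-0.65), with all 4 lower and the solvent control arrays of 3 wholly below, as for 136 of all 1035 transcripts (13.1%). EAC00181 had 6.21, 5.47 and 6.12 in the solvent control and 6.63, 6.57 and 6.58 in the water control, a change of -0.67 (adjusted p = 0.44). EAC00999 changed by -0.86 (adjusted p = 0.15) and was not well above background on any solvent control array. None of the 4 passed the test. Tubulin, stathmin and tektin had a median of -0.19 over 5 transcripts, the tubulin beta chain EAC00485 changing by -0.57 (adjusted p = 0.41).

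Heat shock proteins and chaperonins, which fold proteins and are induced by many stressors, had a median of 0.15 over 8 transcripts. Heat shock protein 90 (EAC00488) had 5.01, 3.69 and 4.59 in the solvent control and 5.16, 5.33 and 5.26 in the water control, a change of -0.82 (95% interval -1.57 to -0.06, adjusted p = 0.38). The chaperonin t-complex protein 1 subunit beta (EAC00473) was at 5.61, 5.83 and 5.75 in the solvent control against 5.29, 5.14 and 5.24 in the water control, a change of 0.50 (adjusted p = 0.47). Heat shock protein 60 and heat shock protein gp96 were not well above background on any control array.

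Ribosomal proteins had a median of -0.19 over 20 transcripts, 8 higher and 12 lower. The 3 transcripts named ribosomal protein l3, EAC00208, EAC00520 and EAC00128, changed by -0.73 (adjusted p = 0.25), -0.58 (adjusted p = 0.36) and -0.45 (adjusted p = 0.65), while ribosomal protein l26 (EAC00583) changed by 0.42 (adjusted p = 0.41). Respiratory chain and ATP synthase transcripts, which serve mitochondrial energy supply, had a median of 0.22 over 20. The lowest of them was cytochrome c oxidase subunit via (EAC00356) with a change of -0.56 (adjusted p = 0.24). Translation factors had a median of 0.03 over 4, phosphagen and carbon metabolism -0.12 over 8, and proteolysis and ubiquitin -0.18 over 7.

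Redox enzymes and dehydrogenases, which include enzymes that remove reactive oxygen species, had a median of 0.23 over 5 transcripts. Superoxide dismutase (EAC00791), which removes superoxide, stood at 9.23, 8.86 and 9.93 in the solvent control and 9.05, 9.40 and 9.28 in the water control, a change of 0.10 (95% interval -0.50 to 0.70). The short chain dehydrogenases EAC01022 and EAC00554 changed by 0.37 and 0.23 (adjusted p = 0.63 and 0.77). Neither short chain dehydrogenase passed the test. In both the solvent control arrays lay above the water control arrays, as for 143 of all 1035 transcripts (13.8%).

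Among secreted and extracellular proteins, crim1 (EAC00415), a cysteine-rich membrane protein that binds bone morphogenetic proteins in vertebrates, had the largest change of any named transcript outside mads flc-like protein 2. It was at 11.60, 11.93 and 12.10 in the solvent control and at 10.35, 9.91 and 9.41 in the water control. The change of 1.99 (95% interval 0.86 to 3.11) lay just outside the threshold with an adjusted p of 0.054. The list of 3 cysteine-rich extracellular proteins had a median of 0.48. Extracellular haemoglobin, the oxygen carrier dissolved in annelid blood, had a median of 0.60 over 2 transcripts, and linker l4 (EAC00261) changed by 0.75 (adjusted p = 0.67) with overlapping groups. Lectin, lysozyme and glucanase, which take part in defence and digestion, had a median of -0.07 over 5, the gland and ovulatory secreted proteins 0.13 over 2, and DNA replication and chromatin -0.03 over 4.

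**Figure D5:**
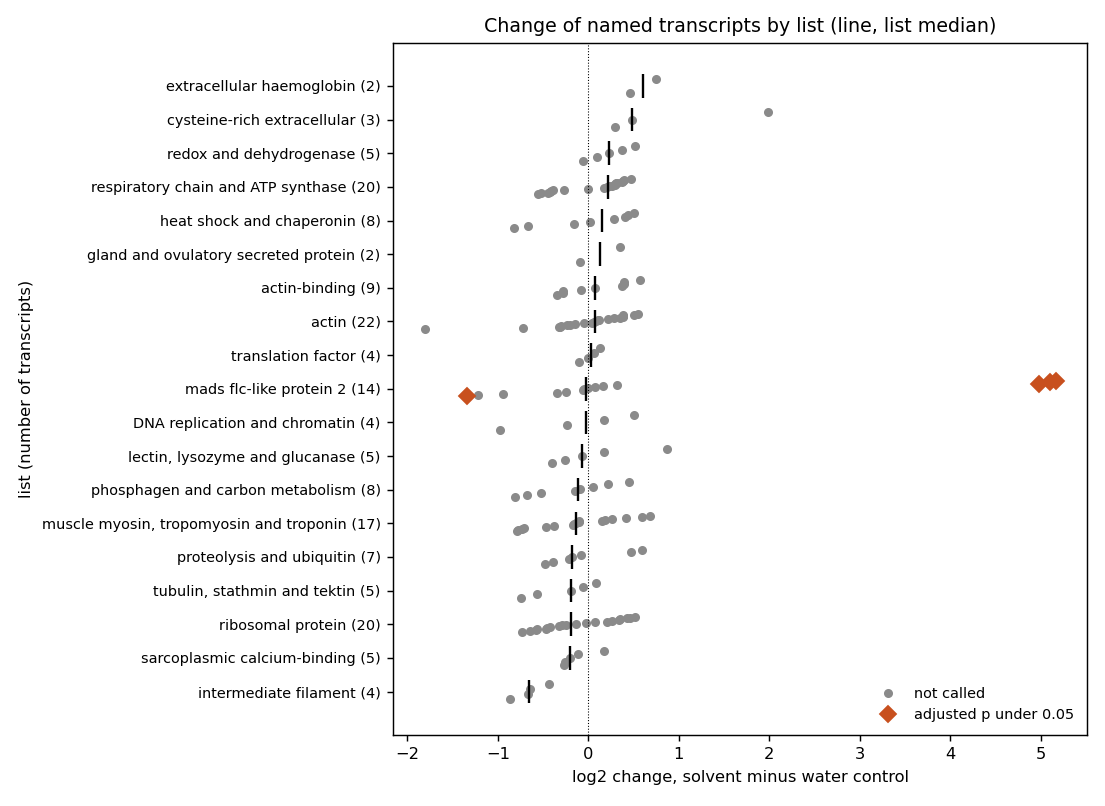
Log2 change, solvent control minus water control (horizontal axis), of the 164 named transcripts in 19 lists (vertical axis), each point being 1 transcript and each line a list median. Outside mads flc-like protein 2 no transcript was called, and the farthest points are crim1 at 1.99 and the beta actin EAC00523 at -1.81.

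The study had chosen 7 transcripts for quantitative PCR, and limma called none of them between the controls, with 1, heat shock protein 90, at an unadjusted p under 0.05 (0.034). Besides heat shock protein 90, superoxide dismutase and the intermediate filament protein EAC00181, these were stathmin (EAC00992), which changed by -0.05 (95% interval -0.55 to 0.44), and sec14-like 2 (EAC00716), which changed by -0.20 (95% interval -0.73 to 0.33). Stathmin, a protein that destabilises microtubules, was at 7.26, 7.22 and 8.05 in the solvent control and 7.43, 7.63 and 7.63 in the water control. Retinol dehydrogenase 3 (EAC00387) and glucan endo-beta-glucosidase (EAC00265) were not well above background on any of the 6 arrays. For stathmin, sec14-like 2 and superoxide dismutase the intervals leave out a change of 1 in either direction.

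Some transcripts ranged widely among the replicates of a group. P2_B7_T7_1328934 was at 1.49, 8.68 and 1.96 in the solvent control and 1.46, 9.02 and 1.57 in the water control, so that it was bright on replicate 2 of both groups and not well above background on the other arrays. P1_B11_T7_1328879 had 6.73, 9.34 and 2.60 in the solvent control and 9.32, 8.99 and 2.52 in the water control. P2_F8_T7_1328946 changed by 3.25, with 8.76, 10.36 and 11.68 in the solvent control against 5.73, 6.31 and 9.00 in the water control, and its groups overlapped (adjusted p = 0.60). Ealb_Met_P10_D6_SP6_2091204 had a high array in the solvent control, with 7.41, 11.53 and 9.03 there and 8.02, 7.63 and 7.99 in the water control. P2_D7_T7_1328936 had 5.94, 2.77 and 2.24 in the solvent control and 7.58, 4.63 and 2.66 in the water control. A range of over 2 log2 units was found for 23 transcripts among the solvent control arrays (2.22%) and for 36 among the water control arrays (3.48%), while the median SD was 0.35 in the solvent control and 0.20 in the water control.

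For transcripts that were not called the intervals set what could have been missed. The median half-width of the 95% interval was 0.68, and for 510 of the 1016 transcripts not called the interval lay within a change of 1 in either direction. For the other 506 transcripts that were not called the interval reached a change of 1, or 2-fold, in at least 1 direction. Arrays of different control groups differed by a root mean square of 0.68 to 1.16 over all transcripts, against 0.63 to 0.75 within the solvent control and 0.61 to 0.73 within the water control. Without the 19 called transcripts it was 0.56 to 0.88 between the groups, against 0.63 to 0.75 within the solvent control and 0.54 to 0.64 within the water control.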

How the data were processed

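Levels came from 42 one-colour Agilent arrays in 14 groups of 3. The deposited intensity values were, per the file headers, background-subtracted and detrended within arrays by the authors' scanner software, Agilent Feature Extraction 10.5.1.1, and were not normalized between arrays. Control spots and outlier spots (421 to 1070 per array) were left out, the 14 to 15 spots of each of 1035 transcripts were averaged, and log2 averages were shifted by -1.29 to 0.50 per array, the median of their differences from the array with the middle median.

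Fits used limma 3.58.1 in R 4.3.3 and 1 mean for each of the 14 groups. Degrees of freedom were 28 (residual) and 3.94 (prior), and p values were adjusted by Benjamini-Hochberg across 1035 transcripts. Each adjusted p for a transcript is limma's. The methods' t-test was an alternative. The limma fit was tested on simulated data with equal spread in all groups and no slide effect. Spot averaging, the shift between arrays and name matching were not part of that test. Tables and figures used Python 3.11.15. Names were matched for 225 of 225 transcripts by their 12 fold changes in the study's supplement (largest difference 0.0013).

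Described individually were all called transcripts, the 10 highest and 10 lowest changes, the 5 widest ranges in each control, 7 transcripts used for PCR, the extremes of each list and transcripts correlated with the largest change. Some lowest changes and list extremes are given as ranges or medians. The comparison, members and lists were chosen with earlier results of these data known. No 2 arrays held identical values. Labels give biological replicates without saying how vessels were set up. The fit assumes equal spread in all groups.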

Additional observations from a re-analysis of the deposited data

How the results depend on the processing

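Between solvent and water control 19 transcripts were called, and the number was 0 with the slide as a block, 0 with the methods' t-test after adjustment (154 without it), 37 with 75th percentile scaling and 57 without the scan that held dimethoate EC10 replicate 1 and EC20 replicate 2. The same 19 were among those 37 and those 57. Fewer of the 19 stayed called elsewhere, 10 with the 6 control arrays alone, 14 with normexp and 15 with the scan as a random block. The day of scanning as a block kept 16, quantile normalization 17 and the slide as a random block 18. Leaving out 1 solvent control array kept 13 to 17. Leaving out each control array in turn gave 1 to 20. The lowest counts came without water control replicate 3 (1) and replicate 2 (11). Other settings gave 15 to 25, including 15 from the 6 control arrays alone, 22 without dim transcripts and 16 with the scan as a random block. Transcripts whose groups did not overlap numbered 204 to 368, against 279. Between acetone-spiked and dimethoate groups the count of 164 became 0 with the slide as a block and 73 without that scan. EAC01087 (Ealb_Pest_P8_C5_SP6_2090928) turned to 0.033 with normexp. The cause of these changes was not tested.

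Labels do not say whether replicate numbers pair the controls, and the main fit did not use these numbers. Same-numbered arrays correlated in their deviations by 0.08, 0.16 and 0.24, and the other pairs by -0.21 to 0.04. Each array thus correlated best with its own number, and whether the replicates were paired was not tested. With the replicate block 21 were called between the controls and 165 between acetone-spiked and dimethoate groups. Signal limits dim transcripts. The 118 transcripts not well above background on any control array had a median change of 0.40, and the 24 saturated on all 6 had 0.19, with no call in either.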
